A study of Homo sapiens with 3 samples.

Results

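The genes described here are ATF4 and the regulators and effectors of the integrated stress response around it: the transcription factors ATF4, ATF3, ATF5, DDIT3, CEBPB and CEBPG, and the effectors TRIB3, CHAC1, PPP1R15A and ASNS. They were chosen by name, as the 10 genes with these symbols among the 63241 genes of the count table, and all 10 passed the filter on low counts that left 19820 genes for testing. The libraries are ribosome profiling (Ribo-seq) libraries, in which the mRNA fragments that ribosomes shield from a nuclease are sequenced, so that the footprint count of a gene rises with its mRNA level and with the ribosomes on each mRNA. The study asked with them whether translation changes for transcripts bound by mutant p53.

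All cells were HEK293T, a human embryonic kidney line that carries large T antigen of SV40, to which p53 binds. The 3 groups differed in the p53 they expressed: wild-type p53 (WT), p53 G245S or p53 R273H, both mutants being hotspot changes in the DNA-binding domain. The study's methods describe lentiviral stable lines selected with puromycin, while the labels speak of both stable and transient expression and name a wild-type construct in the treatment of the mutants. Groups were therefore taken from the sample titles. Each group had 3 dishes, barcoded separately and pooled per group at reverse transcription, so that group and pool cannot be told apart, and the p-values measure only the spread between dishes of 1 pool. Cycloheximide was applied before lysis, micrococcal nuclease made the footprints, and no cells without a p53 construct were analysed here.

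In the integrated stress response, kinases that sense amino acid shortage, unfolded proteins, double-stranded RNA or heme shortage phosphorylate the initiation factor eIF2. Initiation then slows on most mRNAs, while mRNAs with short open reading frames in their leader, of which ATF4 is the classic case, are translated more. ATF4 dimerizes with C/EBP proteins on composite C/EBP-ATF elements and switches on genes of amino acid supply, tRNA charging and, in prolonged stress, cell death.

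A composite element with the letters TGATGNAA was searched on both strands of the RefSeq promoter sequences (GRCh38.p14, 250 bases before to 50 after each annotated start). All 10 genes were matched, and 4 of them (40%) held the motif in at least 1 window, against 4.46% of the 27305 genes searched. Genes differ in their number of windows, which these shares by gene do not allow for. Of all 35116 windows, 1270 (3.62%) held the motif. The 4 windows of 30 bases below are shown because they hold the site type to which ATF4 is known to bind. They read 5′ to 3′ on the strand of the gene, and capitals mark the motif, which in CHAC1 is read as its reverse complement:
ASNS: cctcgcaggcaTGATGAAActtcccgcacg
CEBPG: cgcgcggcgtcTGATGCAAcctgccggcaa
CHAC1: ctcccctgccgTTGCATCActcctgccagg
ATF3: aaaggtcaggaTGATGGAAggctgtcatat
The ASNS window is chr7:97872458-97872487 on the minus strand, with the motif at positions -68 to -61 from the start. The CEBPG window is chr19:33374060-33374089 on the plus strand, with the motif at positions -42 to -35 from the start. The CHAC1 window is chr15:40953251-40953280 on the plus strand, with the motif at positions -209 to -202 from the start. The ATF3 window is chr1:212565205-212565234 on the plus strand, with the motif at positions -191 to -184 from the start. The ASNS and CHAC1 windows overlap an exon of at least 1 annotated transcript, whereas the CEBPG and ATF3 windows overlap none. A match describes these letters only, and ATF4, ATF5, DDIT3, CEBPB, TRIB3 and PPP1R15A had no match in the windows searched. Of the 4 genes shown, ASNS, CHAC1 and CEBPG were called higher in at least 1 mutant and ATF3 was called lower in G245S.

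Libraries held 18.7 to 24.6 M counts, and the 10 genes together took 372 ± 5.33 CPM (counts scaled to a common library total) in WT, 445 ± 1.43 in G245S and 453 ± 4.24 in R273H (SD, n = 3 dishes per group). By dish, the sum was 369, 370 and 379 CPM in WT, 445, 443 and 445 in G245S and 452, 457 and 449 in R273H. Every mutant dish thus lay above every WT dish. ASNS and ATF4 made up most of this sum: ASNS took 37.2% of it in WT, 44.6% in G245S and 42.5% in R273H, while the share of ATF4 was 28%, 28.2% and 29.1%. CPM compares each gene with the rest of its library, and in these bulk samples fewer cells making a transcript and less RNA per cell cannot be told apart.

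Against WT, edgeR called 6 of the 10 genes in G245S at an adjusted p under 0.05, with ASNS, ATF4, CHAC1 and TRIB3 higher and ATF3 and ATF5 lower. It called 5 in R273H, with ASNS, ATF4, CHAC1 and CEBPG higher and ATF5 lower. Over all genes tested, 24.7% were called in G245S (12.6% higher and 12.1% lower) and 28.8% in R273H (14.2% higher and 14.6% lower). Genes with more counts were called more often. With only the 12656 genes at a mean count of at least 100, edgeR called 4676 in G245S and 5147 in R273H. Of the 10 genes, 8 remained with that filter, of which 6 were called in G245S and 4 in R273H. The median log2 fold change of the 10 genes was 0.11 in G245S and 0.16 in R273H, beside -0.0007 and -0.0024 over all genes. Both comparisons share the WT dishes, so calls common to them are not independent of each other. All p-values below are Benjamini-Hochberg adjusted over the 19820 genes in edgeR's quasi-likelihood test, and standard errors (SE) come from the same fit.

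**Figure D1:**
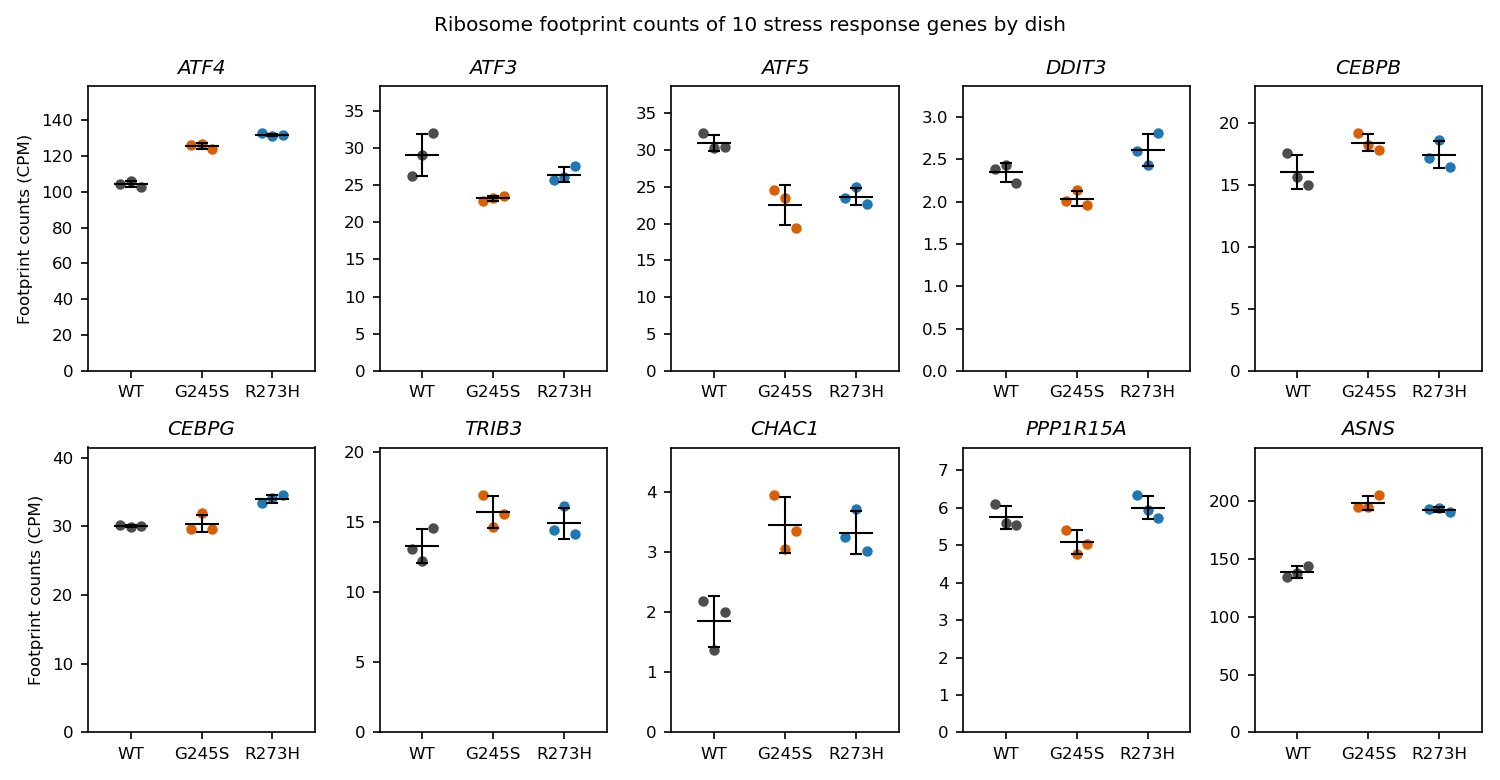
Footprint counts in CPM (vertical axes, each from 0) of the 10 genes in each dish of the WT, G245S and R273H groups. Points are dishes, the wide line is the mean and the error bar 1 SD (n = 3). For ATF4, ASNS and CHAC1 all mutant dishes lie above all WT dishes, and for ATF5 all lie below.

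ATF4, the central transcription factor of the response, had 104, 106 and 103 CPM in the WT dishes, 126, 127 and 124 in G245S and 133, 131 and 132 in R273H. The 3 groups did not overlap, with WT lowest and R273H highest. ATF4 rose by 20.4% in G245S (log2 fold change 0.27, SE 0.031, adjusted p = 1.5e-07) and by 26.4% in R273H (0.34, SE 0.030, adjusted p = 1.1e-09). The increase was modest: tested with edgeR's glmTreat for a change beyond 1.2-fold, the adjusted p was 1 in G245S and 0.0611 in R273H. ATF4 lies on chromosome 22 (39519695 to 39522683, plus strand, GRCh38), and its canonical transcript in GENCODE release 44 has 3 exons and a leader of 282 bases with 3 upstream ATG codons. The reading frame of 1 of these ATG codons runs into the coding region. The sources used here do not say whether counts cover the whole transcript or the coding region only, so footprints on upstream reading frames may be part of these values. Counts of ATF4 were not whole numbers in 9 of 9 libraries (tolerance 0.01), as happens when reads are shared among similar genes. Its 4 annotated pseudogenes averaged at most 0.535 CPM in any group.

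ATF5, a related bZIP factor whose mRNA also carries upstream reading frames, moved the other way. It had 32.2, 30.3 and 30.4 CPM in WT, 24.6, 23.5 and 19.4 in G245S and 23.4, 25 and 22.6 in R273H. All mutant dishes were below all WT dishes, and the mutants overlapped each other, with dish 3 of G245S the lowest of the 9. ATF5 decreased by 27.8% in G245S (log2 fold change -0.47, SE 0.070, adjusted p = 1.2e-05) and decreased by 23.6% in R273H (-0.39, SE 0.068, adjusted p = 7.2e-05). In the test against a minimum fold change of 1.2 the call in R273H was lost (adjusted p = 0.17). The ATF5 gene (chromosome 19, 49928702 to 49933935, plus strand) overlaps NUP62 and IL4I1 on the other strand, and the handling of strand is not given in the sources used here. NUP62 averaged 122, 132 and 122 CPM in WT, G245S and R273H. The leader of ATF5 has 315 bases and 2 upstream ATG codons, and 1 of the reading frames runs into the coding region, as in ATF4.

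ATF3, a stress-induced bZIP factor that mostly represses its targets, had 26.2, 29 and 31.9 CPM in WT, 22.9, 23.2 and 23.5 in G245S and 25.6, 26 and 27.6 in R273H. G245S was below every other dish, whereas R273H overlapped WT, whose dishes were the most spread. ATF3 decreased by 20.1% in G245S (log2 fold change -0.32, SE 0.066, adjusted p = 0.000496). R273H differed from WT by -0.14 on the log2 scale (SE 0.062, adjusted p = 0.102), with -0.21 without WT dish 1 (adjusted p = 0.0179), -0.062 without WT dish 3 (adjusted p = 0.533) and -0.062 with length and GC trends removed (adjusted p = 0.482). The G245S call was lost against a minimum fold change of 1.2 (adjusted p = 0.616). ATF3 (chromosome 1, 212565334 to 212620777, plus strand) has no upstream ATG in its canonical leader of 174 bases.

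DDIT3, which encodes CHOP, a factor linked to cell death in prolonged stress, was sparse, with 37 to 65 counts per library. It had 2.38, 2.43 and 2.22 CPM in WT, 2.01, 2.14 and 1.96 in G245S and 2.6, 2.43 and 2.8 in R273H. The G245S dishes were below the others and R273H overlapped WT, but neither comparison passed the test. For DDIT3 the log2 fold change was -0.21 in G245S (95% interval -0.58 to 0.17, adjusted p = 0.465) and 0.15 in R273H (-0.20 to 0.51, adjusted p = 0.551), intervals that include differences of either sign. DDIT3 (chromosome 12, 57516588 to 57521737, minus strand) overlaps MARS1 on the other strand, a tRNA synthetase gene at 209 CPM in WT, 263 in G245S and 251 in R273H. Counts of DDIT3 were not whole in 9 of 9 libraries, and a readthrough gene on its own strand averaged 0.666 to 0.763 CPM. The DDIT3 leader has 3 upstream ATG codons, 1 of them with a reading frame that runs into the coding region.

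CEBPB and CEBPG encode C/EBP proteins that dimerize with ATF4. CEBPG had 30.2, 29.9 and 30.1 CPM in WT, 29.7, 31.9 and 29.7 in G245S and 33.5, 34.1 and 34.6 in R273H. The R273H dishes were above all others, and G245S overlapped WT. CEBPG rose by 13.2% in R273H (log2 fold change 0.18, SE 0.051, adjusted p = 0.00901), a call that DESeq2 did not make (adjusted p = 0.0662). In G245S the log2 fold change was 0.017 (adjusted p = 0.862). CEBPG (chromosome 19, 33373685 to 33382686, plus strand) has 1 upstream ATG.

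CEBPB had 17.6, 15.6 and 15 CPM in WT, 19.2, 18.3 and 17.8 in G245S and 17.2, 18.7 and 16.5 in R273H. G245S was above WT in every dish, by a small gap, while R273H overlapped both. Neither comparison passed the test, with a log2 fold change for G245S of 0.19 (adjusted p = 0.0628) and for R273H of 0.12 (adjusted p = 0.246). The G245S value passed it in 6 of 21 alternative settings, and the R273H value in 2. CEBPB (chromosome 20, 50190830 to 50192668, plus strand) is a single-exon gene with a coding region of 73.51% GC, the highest of the 10, and CEBPB-AS1 on the other strand averaged at most 0.207 CPM.

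Among the effectors, ASNS, the asparagine synthetase that makes asparagine from aspartate, carried the most counts. It had 134, 138 and 144 CPM in WT, 195, 195 and 205 in G245S and 193, 194 and 190 in R273H. Mutant dishes were all well above WT, and G245S was slightly above R273H. ASNS rose by 43% in G245S (log2 fold change 0.52, SE 0.031, adjusted p = 2.3e-13) and by 38.8% in R273H (0.47, SE 0.031, adjusted p = 1.2e-12). Both calls were made in 21 of 21 alternative settings, the test against a minimum fold change of 1.2 included. ASNS (chromosome 7, 97851677 to 97872542, minus strand, 13 exons) overlaps a long noncoding RNA gene on its own strand that averaged 22.5 to 25.1 CPM, and its 4 annotated pseudogenes averaged at most 0.0947 CPM.

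CHAC1, which degrades glutathione, had the largest fold change of the 10 genes in both mutants and few counts, 26 to 92 per library. It had 2.18, 1.37 and 2 CPM in WT, 3.96, 3.05 and 3.36 in G245S and 3.25, 3.72 and 3.02 in R273H. All mutant dishes were above all WT dishes, and the mutants overlapped. CHAC1 rose by 85.4% in G245S (log2 fold change 0.89, 95% interval 0.50 to 1.28, adjusted p = 0.000879) and by 79.3% in R273H (0.84, 0.46 to 1.23, adjusted p = 0.00104). The call held in the 20 of 20 alternative settings that tested CHAC1, with log2 fold changes of 0.72 to 1.03 in G245S and 0.67 to 0.98 in R273H. CHAC1 is on chromosome 15 (40952962 to 40956512, plus strand), and no annotated gene overlaps it.

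TRIB3, a pseudokinase that binds ATF4 and dampens its activity, had 13.1, 12.3 and 14.6 CPM in WT, 17, 14.7 and 15.6 in G245S and 14.5, 16.2 and 14.1 in R273H. G245S lay just above WT, and R273H overlapped both. TRIB3 rose by 18.1% in G245S (log2 fold change 0.24, SE 0.086, adjusted p = 0.0397). DESeq2 did not make this call (adjusted p = 0.157), and leaving out WT dish 1, WT dish 2, G245S dish 1 or G245S dish 3 ended it, with adjusted p of 0.101, 0.182, 0.17 and 0.0714. In R273H the log2 fold change was 0.17 (adjusted p = 0.145), with 0.10 to 0.28 over 21 alternative settings, of which 3 gave a call: length and GC trends removed, the same with a dish block, and dish 3 of each group left out (adjusted p = 0.0463, 0.0374 and 0.0377). TRIB3 (chromosome 20, 362835 to 397559, plus strand) has 2 upstream ATG codons.

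PPP1R15A, or GADD34, brings protein phosphatase 1 to eIF2 and so ends the response. It had 6.11, 5.6 and 5.54 CPM in WT, 5.42, 4.78 and 5.04 in G245S and 6.34, 5.95 and 5.74 in R273H. G245S was lowest and R273H overlapped WT. The log2 fold change was -0.18 in G245S (95% interval -0.43 to 0.072, adjusted p = 0.31) and 0.063 in R273H (-0.18 to 0.30, adjusted p = 0.735). PPP1R15A lies on chromosome 19 (48872212 to 48876059, plus strand), with 2 upstream ATG codons in its leader.

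**Figure D2:**
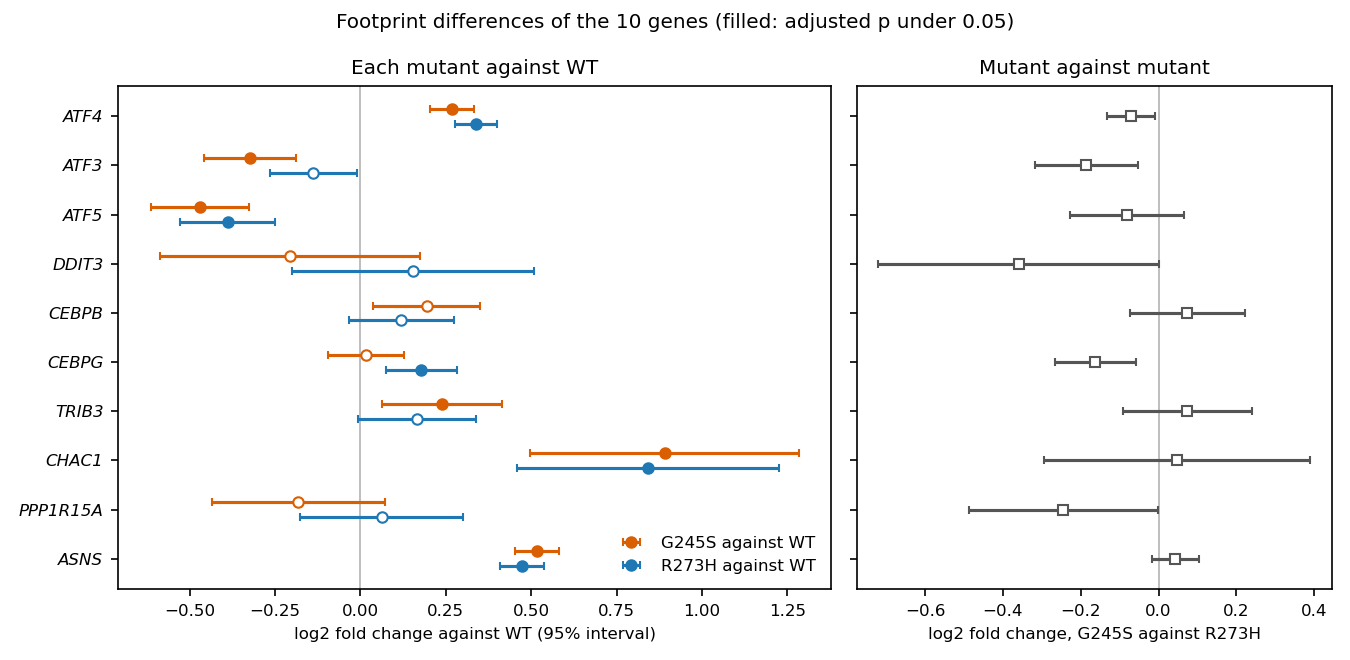
Log2 fold changes (horizontal axes) of the 10 genes with 95% intervals from edgeR, each mutant against WT on the left and G245S against R273H on the right. Filled symbols have an adjusted p under 0.05. ASNS, ATF4 and CHAC1 lie above 0 and ATF5 below 0 in both mutants, and no symbol of the direct comparison is filled.

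Genes with and without upstream ATG codons were called in both directions. Of the 10 canonical leaders, 6 held at least 1 upstream ATG (ATF4, ATF5, DDIT3, CEBPG, TRIB3 and PPP1R15A), against 41.1% of the 13615 coding genes tested. In 3 of them (ATF4, ATF5 and DDIT3) an upstream reading frame overlapped the coding start, against 12.6% of those genes. ATF4 rose and ATF5 fell in both mutants, while DDIT3 passed the test in neither. ASNS and CHAC1, which rose in both, had no upstream ATG, and neither had ATF3, which fell in G245S.

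Between the mutants, edgeR called 0 of the 10 genes, beside 2.59% of all genes (1.86% higher and 0.732% lower in G245S). At an unadjusted p under 0.05 there were 4 of the 10, ATF4, ATF3, CEBPG and PPP1R15A, each lower in G245S than in R273H, and 3120 of all genes. DESeq2 also called 0, with an adjusted p for 5 of the 10. The median log2 fold change of the 10 genes was -0.08, beside 0.0006 over all genes.

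The intervals of the direct comparison bound how far the mutants could differ. For ASNS the log2 fold change of G245S against R273H was 0.043 (95% interval -0.018 to 0.10, adjusted p = 0.516), and for ATF4 it was -0.071 (-0.13 to -0.010, adjusted p = 0.226). For ATF3 it was -0.19 (-0.32 to -0.053, adjusted p = 0.132), and for CEBPG it was -0.16 (-0.27 to -0.058, adjusted p = 0.0913). These last values concern the genes that were called against WT in 1 mutant only, so a difference between the mutants was not shown for either gene by this test. The TRIB3 value, the third such case, was 0.074 (-0.092 to 0.24, adjusted p = 0.718). With a dish block in edgeR, ATF3 and CEBPG were called lower in G245S than in R273H (adjusted p = 0.0384 and 0.0376). With length and GC trends removed as well, neither was called. The intervals of the sparse genes were wide: -0.29 to 0.39 for CHAC1, -0.72 to 0.001 for DDIT3 and -0.49 to -0.002 for PPP1R15A. ATF5 and CEBPB had intervals of -0.23 to 0.065 and -0.074 to 0.22.

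Levels of different genes can be compared only per length, so CPM was divided by the coding length in kilobases. The counted region is not given in the sources used here, so footprints outside the coding region may raise these levels and affect their order. In WT, ATF4 had the highest level of the 10 (98.7 ± 1.55 CPM per kb, SD, n = 3), followed by ASNS (82.3 ± 2.95), CEBPG (66.4 ± 0.323), ATF3 (53.2 ± 5.23) and ATF5 (36.5 ± 1.27). CEBPB (15.5 ± 1.3) and TRIB3 (12.4 ± 1.11) were intermediate. DDIT3 (4.59 ± 0.221), PPP1R15A (2.84 ± 0.153) and CHAC1 (2.77 ± 0.636) were low. Neighbours in this order did not overlap between dishes of WT, except PPP1R15A and CHAC1. Among 13615 coding genes the WT level of ATF4 stood at percentile 84.8 and that of CHAC1 at percentile 18.7.

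The first 7 places were the same in the mutants. In G245S, ASNS (118 ± 3.58 CPM per kb) came close to ATF4 (119 ± 1.45), with ranges of 115 to 122 and 117 to 120, which overlapped. In R273H the ranges were apart, 113 to 115 for ASNS and 124 to 125 for ATF4. CHAC1 passed PPP1R15A in both mutants, with 5.17 ± 0.688 CPM per kb in G245S and 4.98 ± 0.534 in R273H, against 2.51 ± 0.159 and 2.97 ± 0.152 for PPP1R15A.

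**Figure D3:**
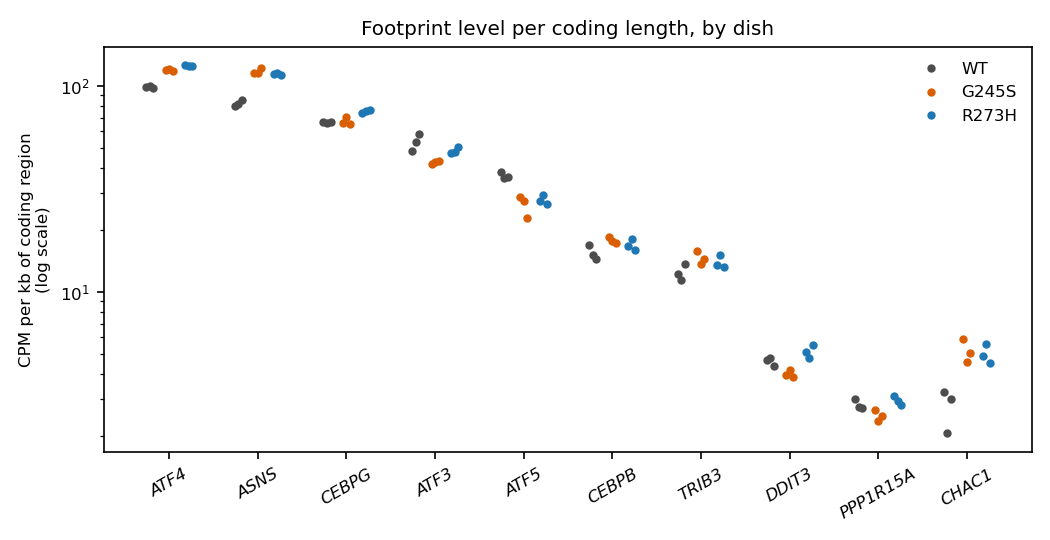
Footprint level of the 10 genes in CPM per kb of coding region (vertical axis, log scale) for each dish of WT, G245S and R273H, ordered by the WT mean. ATF4 and ASNS are highest, and CHAC1, lowest in WT at 2.77, is above PPP1R15A in both mutants.

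The wider pathway was described with lists of genes by role. Of 20 genes of amino acid synthesis and transport known as ATF4 targets, 17 rose and 0 fell in G245S, and 17 rose and 0 fell in R273H, with median log2 fold changes of 0.31 and 0.26. The called share of 85% in each compares with the 24.7% and 28.8% of all genes. SLC7A5, a transporter of large neutral amino acids, had 63.4 to 68.7 CPM in WT, 106 to 119 in G245S and 105 to 111 in R273H. Its log2 fold change was 0.75 in G245S (SE 0.042, adjusted p = 8.6e-14) and 0.69 in R273H (SE 0.042, adjusted p = 4.3e-13). ALDH1L2, a mitochondrial enzyme of folate metabolism, rose by 0.67 in G245S and 0.68 in R273H on the log2 scale (adjusted p = 4.5e-10 and 1.9e-10). SLC7A11, the cystine transporter, rose by 0.63 and 0.52 on that scale (adjusted p = 4.7e-07 and 7.0e-06). For all 3 genes, every mutant dish was above every WT dish. They were named for the largest changes of the list, a choice that favours such a gap.

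Of 12 aminoacyl-tRNA synthetases and the tRNA exporter XPOT, 13 genes in all, 12 rose and 1 fell in G245S, and 11 rose and 1 fell in R273H, with medians of 0.22 and 0.21. These calls were 100% and 92.3% of the list, beside 24.7% and 28.8% of all genes. SARS1, the seryl-tRNA synthetase, was the gene that fell in both. IARS1, the isoleucyl-tRNA synthetase, went from 477 to 499 CPM in WT to 637 to 655 in G245S and 619 to 640 in R273H, with log2 fold changes of 0.42 and 0.37 (adjusted p = 1.0e-13 and 1.4e-12). On the same scale XPOT rose by 0.30 and 0.36 (adjusted p = 6.2e-09 and 1.1e-10), and GARS1, the glycyl-tRNA synthetase, by 0.30 and 0.29 (adjusted p = 4.7e-10 and 1.1e-09). Few of these differences were shown to exceed a fold of 1.2: against that minimum, edgeR's glmTreat called 1 of the 13 in G245S and 2 in R273H. Of the 20 amino acid genes it called 6 and 3. Over all 19820 genes tested it called 547 in G245S and 693 in R273H.

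The composite motif was found in 7 of the 11 tRNA genes matched to RefSeq promoters (63.6%) and in 4 of the 14 amino acid genes (28.6%), beside the 4.46% of all genes. It was found in 1 of 18 eIF2 genes (5.56%), 1 of 18 genes of the ATF6 and XBP1 arms of the unfolded protein response (5.56%), 1 of 29 other bZIP factors (3.45%), 1 of 9 other stress outputs (11.1%) and 0 of 4 outputs shared with p53. AARS1, CARS1, IARS1, MARS1 and TARS1 of the tRNA list and HERPUD1 of the unfolded protein response carry the same 8 letters as CHAC1. So do SLC1A4 of the amino acid list, called in neither mutant, and FGF21 of the other stress outputs, which was not tested. PPP1R15B of the eIF2 list and JDP2 of the bZIP list were called in neither mutant. They hold the motif as TGATGCAA, the reverse complement of the letters in CHAC1. SLC1A5 of the amino acid list and NARS1 of the tRNA list hold the same letters. SLC1A5 was called higher in both mutants and NARS1 in G245S only. The IARS1 and HERPUD1 windows are shown as examples, chosen after their values were seen because these genes are named for their change against WT, with the motif as its reverse complement in capitals:
IARS1: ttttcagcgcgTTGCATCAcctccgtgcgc
HERPUD1: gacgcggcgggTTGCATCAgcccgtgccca
The IARS1 window is chr9:92293692-92293721 on the minus strand and the HERPUD1 window is chr16:56931955-56931984 on the plus strand.

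Upstream of ATF4, the list of eIF2 subunits, eIF2 kinases, the exchange factor eIF2B and phosphatase subunits showed small differences. Of 21 genes, 4 rose and 0 fell in G245S and 6 rose and 2 fell in R273H, with medians of 0.044 and 0.029. These calls were 19% and 38.1% of the list, beside 24.7% and 28.8% of all genes. At a mean count of at least 100, which all 21 passed, 6 rose and 1 fell in G245S and 7 rose and 2 fell in R273H. With that filter 4676 and 5147 of 12656 genes were called. The kinases EIF2AK1, EIF2AK2, EIF2AK3 and EIF2AK4 were called in neither mutant. PPP1CC, a catalytic subunit of protein phosphatase 1, rose by 0.17 and 0.19 on the log2 scale (adjusted p = 0.000245 and 5.8e-05), and EIF2S3, the gamma subunit of eIF2, by 0.13 and 0.15 (adjusted p = 0.00067 and 0.000102). DELE1, which relays mitochondrial stress to an eIF2 kinase, had a log2 fold change of -0.21 in R273H (adjusted p = 0.00512), a call lost without WT dish 1, and of -0.12 in G245S (adjusted p = 0.14). Phosphorylation of eIF2 is not measured by footprints.

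Other outputs of the response were mixed. Of 12 tested, 5 rose and 1 fell in G245S, and 5 rose and 2 fell in R273H. These calls were 50% and 58.3% of the genes tested, beside 24.7% and 28.8% of all genes. STC2, a secreted glycoprotein, rose by 0.49 and 0.47 on the log2 scale (adjusted p = 1.2e-08 and 1.6e-08), and VLDLR, a lipoprotein receptor, by 0.39 and 0.44 (adjusted p = 0.0111 and 0.003). The VLDLR call in G245S was lost without WT dish 2, without WT dish 3, without dish 3 of each group and in DESeq2. NUPR1, a stress-induced chromatin protein, had 11 to 13 counts per library in WT, 22 to 32 in G245S and 26 to 41 in R273H. Its log2 fold changes were 1.09 (SE 0.32, adjusted p = 0.0119) and 1.08 (SE 0.31, adjusted p = 0.00911), and dropping dish 1 of the mutant compared ended either call, as did DESeq2.

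Most outputs that p53 also switches on went down. Of 5 such genes, 0 rose and 4 fell in G245S, and 0 rose and 5 fell in R273H, with medians of -0.85 and -0.93. These calls were 80% and 100% of the list, beside 24.7% and 28.8% of all genes (12.1% and 14.6% lower). DDIT4 was not called in G245S (log2 fold change 0.071, adjusted p = 0.28). TNFRSF10B, a death receptor, had 62.2 to 65.9 CPM in WT, 34.2 to 37.1 in G245S and 32.8 to 34.2 in R273H (log2 fold changes -0.85 and -0.93, adjusted p = 2.1e-14 and 1.5e-15). BBC3, the pro-apoptotic PUMA, had log2 fold changes of -1.28 and -1.13 (adjusted p = 4.8e-09 and 1.6e-08). GDF15, a secreted stress cytokine, had 15 to 23 counts per library in WT, 2 to 3 in G245S and 3 to 6 in R273H, too few for a fold in G245S. For reference, the p53 targets CDKN1A and MDM2 fell in both mutants. CDKN1A had log2 fold changes of -1.92 and -2.14 (adjusted p = 4.3e-21 and 1.8e-22), and MDM2 of -3.48 and -3.49 (adjusted p = 8.5e-16 and 5.7e-16). The part of these p53 targets in the results on the 10 genes was not tested.

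**Figure D4:**
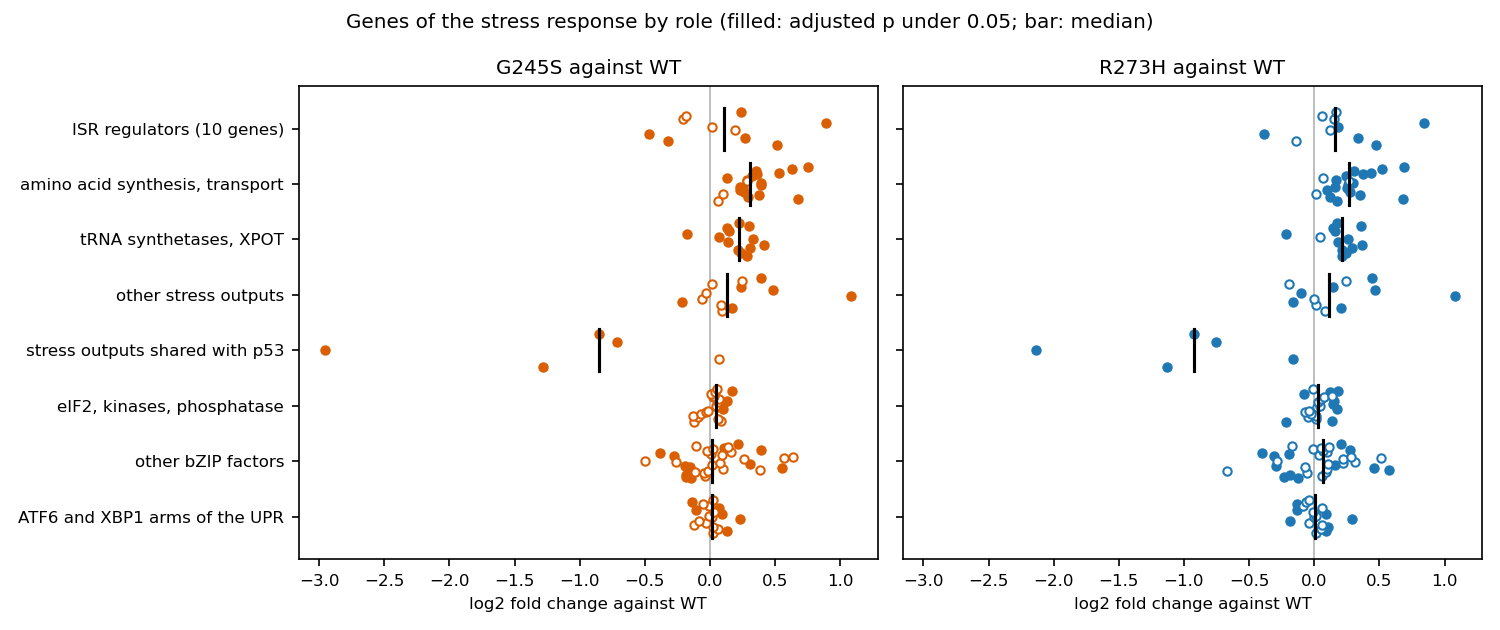
Log2 fold changes against WT (horizontal axes, same scale) of the 10 genes and of 7 lists of related genes, G245S on the left and R273H on the right. Each point is a gene, filled where the adjusted p is under 0.05, and the bar is the median of the list. The amino acid and tRNA lists lie mostly above 0 and the outputs shared with p53 mostly below.

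The genes whose pattern over the 9 libraries was most like that of ATF4 were GEMIN5, BTAF1, DSP, MRPS27 and MTHFD1L. Likeness was the root mean square difference from ATF4 in centred log2 CPM over the 9 libraries. It was taken for 9313 protein-coding genes with a mean of at least 10 CPM. The value was 0.024, 0.027, 0.028, 0.028 and 0.029 for the 5 genes named, beside a median of 0.162 over the genes compared. GEMIN5, which binds small nuclear RNAs for the SMN complex, had mean levels of 124, 151 and 155 CPM in WT, G245S and R273H. MTHFD1L, a mitochondrial enzyme of folate metabolism, had 140, 174 and 175. Their direction was fixed by this choice.

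Markers of epithelial and embryonic kidney cells were present, with 1 exception. KRT18 lay between 108 and 121 CPM, and KRT8 between 32.4 and 44.5. CDH1 (5.24 to 8.58 CPM), PAX2 (5.01 to 8.24), LHX1 (3.06 to 6.3) and EPCAM (3.28 to 5.35) were low. They lay below COL1A1, a marker of other cells, at 25 to 34 CPM. The 7 epithelial and kidney markers summed to 164.0 to 176.6 CPM in WT, 165.9 to 168.9 in G245S and 179.8 to 185.3 in R273H, most of it from KRT18. Of the 6 tested, LHX1 was called higher in G245S (log2 fold change 0.51, adjusted p = 0.012). In R273H, KRT8, LHX1 and PAX2 were called higher (0.36, 0.64 and 0.35, adjusted p = 1.3e-06, 0.00115 and 0.0359), with a median of 0.34 over the 6, and KRT8 was also called lower in G245S than in R273H (-0.30, adjusted p = 0.000527). PAX8, the exception, had at most 2 counts. Of the 6 markers of other cells, COL1A1, a collagen chain and the sole marker of these that passed the filter, had 25 to 34 CPM and was called lower in both mutants (log2 fold changes -0.21 and -0.24, adjusted p = 0.0178 and 0.00448), CD3E was at 0 in 9 of 9 libraries, and COL1A2, PTPRC, PECAM1 and VWF had at most 3 counts. The markers of other cells summed to 31 to 34.1 CPM in WT, 25.2 to 30.1 in G245S and 26.7 to 29.2 in R273H. The part of these marker differences in the results on the 10 genes was not tested.

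Deviations from the mean library correlated with coding length by group, and with GC content by both group and dish. The Spearman correlation with coding length was -0.18 to -0.14 in the WT libraries, -0.011 to 0.12 in G245S and 0.14 to 0.19 in R273H, as a description across genes. With GC content it was 0.26, 0.12 and -0.18 in WT dishes 1, 2 and 3, 0.34, 0.30 and -0.18 in G245S and -0.18, -0.14 and -0.42 in R273H, so that WT and G245S had nearly the same range and dish 3 was lowest in each group. With both trends removed from every library, ATF4 had log2 fold changes of 0.31 and 0.37, ASNS of 0.53 and 0.43, CHAC1 of 0.94 and 0.93 and ATF5 of -0.44 and -0.31 in G245S and R273H, all with an adjusted p under 0.05. The calls over all genes in G245S then split into 3446 higher and 1981 lower, in place of 2498 and 2402.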

How the data were processed

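Ribo-seq libraries of 9 dishes were analysed, 3 each for WT, G245S and R273H. Per the submitters' processing notes and methods, the authors trimmed reads (Trim Galore, cutadapt), removed rRNA reads, aligned with STAR to GRCh38 and used UMI-tools where applicable. The deposited values are expected counts per gene without scaling for depth, made by the authors. The counting tool, annotation, strand handling and counted region are not given in the sources used here.

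Expected counts were rounded and tested in edgeR 4.0.16 (R 4.3.3; TMM, filterByExpr, robust quasi-likelihood fit of all 9 libraries, group as the only term, two-sided). A call needed an adjusted p (Benjamini-Hochberg, 19820 genes) under 0.05. The biological coefficient of variation was 2.58%. CPM values are scaled by TMM library sizes. DESeq2 1.42.0, other normalizations and filters, a minimum fold change of 1.2, a dish block, removal of length and GC trends and leaving out dishes were alternatives. Coordinates, coding regions and leaders come from GENCODE release 44 and promoters from RefSeq (GRCh38.p14).

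The 10 genes and all lists were chosen with earlier results of these data known. Named genes are the 10, CDKN1A, MDM2, up to 3 called genes per list with the largest mean change, and the 5 nearest to ATF4. No spike-in and no matched RNA-seq were used here. A marker gene of the cell type list is not reported here.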

Additional observations from a re-analysis of the deposited data

Results flagged for a closer look

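In the direct comparison of the mutants, 4 of the 121 tested genes of the wider lists (3.31%) differed by the test of the difference itself (edgeR, adjusted p over 19820 genes), a share near the 2.59% of all genes. The marker KRT8 was called as well, and none of the 10 genes was. PHGDH, the first enzyme of serine synthesis, was higher in G245S than in R273H by 0.14 on the log2 scale (adjusted p = 0.00156), with means of 688, 808 and 735 CPM in WT, G245S and R273H. SLC1A5, a glutamine transporter, was higher by 0.12 (adjusted p = 0.00422), with means of 368, 449 and 412 CPM. CBS, which makes cystathionine from homocysteine, was higher by 0.17 (adjusted p = 0.0031), with means of 158, 193 and 171 CPM. These 3 genes were called higher than WT in both mutants, a call that CBS lost in R273H without R273H dish 3. DDIT4, an inhibitor of mTORC1 that p53 also induces, was higher in G245S than in R273H by 0.23 (adjusted p = 0.00377), with means of 68.1, 71.6 and 61 CPM. Against WT it was called lower in R273H (log2 fold change -0.16, adjusted p = 0.00848; lost without WT dish 2, without R273H dish 1 or with length and GC trends removed) and was not called in G245S (0.071, adjusted p = 0.28). All 4 calls between the mutants were lost against a minimum fold change of 1.2, and those of SLC1A5 and DDIT4 also without G245S dish 2. The part of the separate pools in these differences cannot be told apart from that of the mutants.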

How the results depend on the processing

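Across 21 alternative settings, 587 of 619 values for the 10 genes kept their direction and side of the threshold, 12 lost and 16 gained a call, and 4 changed sign, none of them called. Of the 11 calls against WT, 5 were made in every setting run: ASNS and CHAC1 in both mutants and ATF5 in G245S. With a minimum fold change of 1.2, the calls were 3 in G245S and 2 in R273H. Between the mutants, the replicate block gave 2 calls (ATF3, adjusted p = 0.0384, and CEBPG, adjusted p = 0.0376, both lower in G245S), and removing length and GC trends gave 1 (ASNS, 0.10), with or without the block. Leaving out 1 dish gave 5 to 6 calls in G245S, 5 to 6 in R273H and 0 to 0 between the mutants. With 1 dish left out, ATF5 between the mutants ranged from -0.15 to 0.023 (without G245S dish 3), CHAC1 from -0.053 (without G245S dish 1; -0.015 without R273H dish 3) to 0.14, and CEBPG in G245S against WT from -0.018 (without G245S dish 2) to 0.040. The cause was not tested. The block rests on dish numbers, which the labels do not say pair the dishes. To look for pairing, each dish's deviation from its group mean in log2 CPM was correlated between groups over 12656 genes. Deviations of same-numbered dishes of different groups correlated at 0.042 to 0.228, over 0.1 in 4 of 9 pairs. Those of other numbers correlated at -0.183 to 0.058. A dish's deviations correlated best with those of its own number in 17 of 18 cases. Deviations within a group sum to 0 for each gene, so these correlations are not independent of each other. Some spread was thus shared by dish number, and the reported fit does not model it. Dropping dish 3 of each group was chosen after seeing the data.

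Over all genes, calls in G245S, R273H and between the mutants numbered 4900, 5707 and 513, and became 3052, 3573 and 325 in DESeq2 and 547, 693 and 3 with the minimum fold change. The block gave 1262 calls between the mutants, the block with trends removed 959, and dropping dish 3 of each group 1026. Leaving out 1 dish gave 162 (G245S dish 1) to 712 (G245S dish 3), with 204, 222, 233 and 295 without G245S dish 2 and R273H dishes 1, 2 and 3. CHAC1 and DDIT3 fell below the filter at a mean count of at least 100 and have no value there.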

Other observations

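Other bZIP factors, the family to which ATF4 belongs, were called in both directions. Of 32 tested, 5 rose and 7 fell in each mutant, with median log2 fold changes of 0.014 in G245S and 0.065 in R273H. The called share was 37.5% in each, beside 24.7% and 28.8% of all genes. MAF had log2 fold changes of -0.38 in G245S and -0.40 in R273H (edgeR, adjusted p = 1.7e-08 and 3.7e-09), from a mean of 83.7 CPM in WT to 64.3 and 63.4. CEBPD, a C/EBP factor of acute-phase responses, rose by 0.55 and 0.46 on the log2 scale (adjusted p = 0.00741 and 0.0197) from 3.39 CPM, and DESeq2 did not make either call. The R273H call was also lost without WT dish 2, R273H dish 2, R273H dish 3 or dish 3 of each group. BATF3 was called in R273H (0.58, adjusted p = 0.0103) and not in G245S (0.38, adjusted p = 0.115). The BATF3 call was lost in DESeq2, without WT dish 3 and without dish 3 of each group.

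The ATF6 and XBP1 arms of the unfolded protein response, which act beside the eIF2 kinases when proteins misfold in the endoplasmic reticulum, held 18 tested genes. In G245S 4 of them rose and 2 fell, and in R273H 4 rose and 3 fell, or 33.3% and 38.9%, beside the same 24.7% and 28.8%. The medians were 0.017 and 0.005. At a mean count of at least 100, which all 18 passed, 4 rose and 2 fell in G245S and 5 rose and 3 fell in R273H. In that setting 4676 and 5147 of 12656 genes were called. HERPUD1, a membrane protein of endoplasmic reticulum degradation, rose by 0.23 and 0.29 on the log2 scale (adjusted p = 0.000379 and 1.5e-05). PDIA4, a disulfide isomerase, had log2 fold changes of -0.11 and -0.14 (adjusted p = 0.000683 and 3.8e-05). EDEM1, which directs misfolded glycoproteins to degradation, was called lower in R273H alone (-0.18, adjusted p = 0.0236), with -0.084 in G245S (adjusted p = 0.354), and the difference between the mutants was 0.099 (adjusted p = 0.459). The R273H call of EDEM1 was lost without WT dish 2, without R273H dish 3 and in DESeq2.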
